A study of Mus musculus with 16 samples.

Results

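Cortical bone of the tibia was compared between 4 NT3 and 4 Ctrl mice after the RNA-seq counts of both tibiae of each mouse had been added, which gave 8 units, 1 per mouse. The members described here are the 64 gene rows of the deposited count tables that were called different between the genotypes in these summed units and in neither limb alone, of 171 rows called in the sum and 8626 rows tested there. A row was called at an adjusted p below 0.05 in edgeR's robust quasi-likelihood F test, with Benjamini-Hochberg adjustment over all rows tested. All mice were males aged 16 weeks. The Ctrl group is named in the labels only as Ctrl, and the NT3 group as NT3-Cre+. In both groups the right tibia had been compressed along its axis on 9 days, at 1200 cycles per day and a peak force of 8.7 N in Ctrl and 10.0 N in NT3 for the same target of -2000 microstrain, and the left tibia had not been loaded. Each unit therefore holds 1 loaded and 1 non-loaded limb, and both bones were collected 4 hours after the final loading. Muscle had been removed, and the marrow had been spun out. The sources used here give neither the allele that NT3 stands for, nor the Cre driver, nor the alleles of the Ctrl mice. The series title states that NIK was activated in the osteolineage.

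NIK, the NF-kB inducing kinase encoded by Map3k14, starts the noncanonical NF-kB pathway: it activates the kinase IKK-alpha, which leads to processing of the p100 precursor encoded by Nfkb2, and the p52 product enters the nucleus with RelB. The pathway is known in lymphoid organs, where it drives chemokine genes, and in bone, where osteoclast precursors use it downstream of RANK. Osteoblasts lay down bone matrix, and osteocytes, which derive from them and are buried in it, secrete sclerostin, the Sost product, which restrains Wnt signalling and bone formation.

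The 8 units held 1560739 to 1978154 counted fragments, against 758394 to 1064391 in the single libraries, and the loaded limb supplied 45.8% to 53.8% of a unit. Map3k14 held 3 to 16 fragments per unit and was not tested (3.29 ± 1.54 CPM of all counted fragments in Ctrl against 5.82 ± 3.57 CPM in NT3, mean ± SD, n = 4), too few to check the genotype labels. Of the rows that mark the labelled tissue, 15 of 23 osteoblast and 7 of 15 osteocyte genes were tested by row name. The osteoblast gene Bglap (0 to 4 fragments per unit) and the osteoclast genes Acp5 (1 to 7) and Ctsk (0 to 29) held too few. Col1a1 held 221 to 625 fragments per unit, Alpl 6 to 21, Actb 29 to 57 and Gapdh 63 to 93. Being tested by name does not show that a row measured the gene it is named for, which was not tested. Of the 8626 rows tested, 50.1% shared exon bases with a gene of the opposite strand, and the sources used here do not give the strand setting of the counting. Without that setting, it cannot be told whether the reads of such a row came from its named gene or from the gene opposite. The text therefore gives both names as a rule, and the row's own name may not be the gene that was measured. The rows of such a pair were counted apart: Psd held 157 to 347 fragments per unit, and the Nfkb2 row opposite it 20 to 35. For rows with no gene opposite, the strand of the reads is not known either. In whole bone, fewer cells of a type and less RNA per cell cannot be told apart.

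With the limbs summed, 171 of 8626 rows (1.98%) were called, 98 higher in NT3 (1.14%) and 73 lower (0.846%), and 996 had an unadjusted p below 0.05. The non-loaded limb alone gave 36 of 6220 rows (0.579%) and the loaded limb alone 161 of 6080 (2.65%). Of the 171 rows, 27 were called in both limbs as well, 75 in the loaded limb only, 5 in the non-loaded limb only and 64 in neither. These 64 were the rows called only with the limbs summed, 35 of them higher and 29 lower in NT3. They had been tested and missed in both limbs in 42 cases, tested in 1 limb only in 6, and had too few fragments to be tested in either limb in 16. The limbs are parts of the sum, so the comparisons share all their mice and libraries.

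The fitted genotype effect had the same direction in both limbs for 64 of the 64 rows. Over all 8626 rows tested, both limbs had the direction of the sum in 4903. In a test of the difference of the genotype effect between limbs, with mouse as a block, 11 of 8626 rows were called (0.128%), and 0 of the 64 were among them; 2 of the 64, Plet1os and Has2os, had an unadjusted p below 0.05 in that test. The effect was larger in the loaded limb for 36 rows and in the non-loaded limb for the other 28. Over all 8626 rows it was larger in the loaded limb for 4742. A row whose limbs ran in opposite directions would seldom reach a call in their sum. The count of 64 rows with like directions therefore describes how the rows were chosen and lends them no support. Of the 107 rows called in the sum and in a limb, 106 had the same direction in both limbs, and 91 had the larger effect in the loaded limb.

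**Figure D1:**
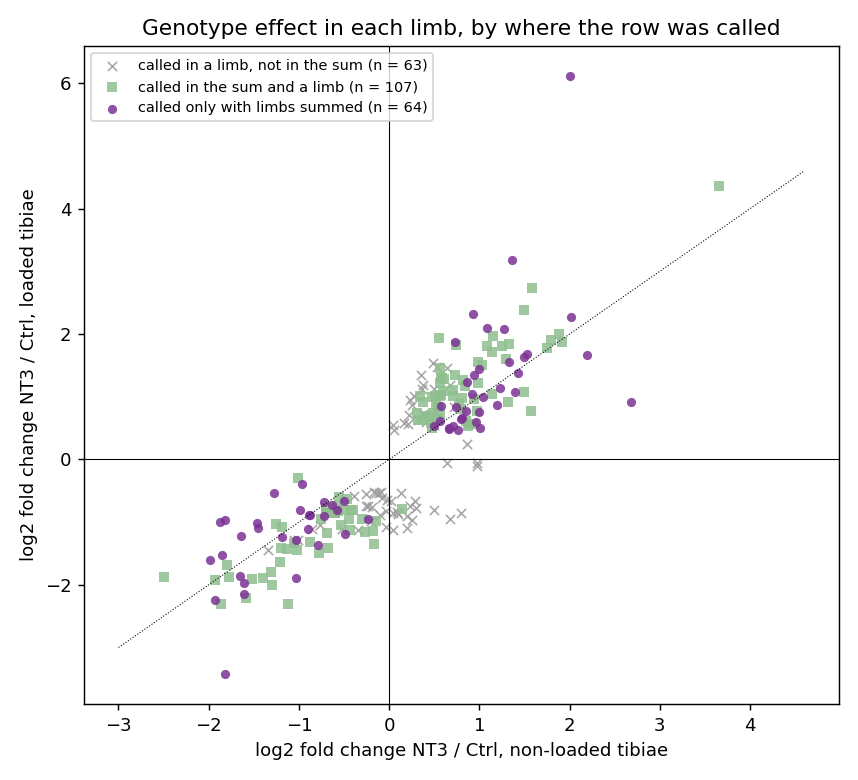
Each point is a row, placed by its NT3 against Ctrl log2 fold change in non-loaded tibiae (x axis) and loaded tibiae (y axis), and the dotted line marks equal effects. All 64 rows called only with the limbs summed have both values above 0 or both below 0; the highest of them is Plet1os, whose 4 loaded Ctrl limbs held 0 fragments, so that its height is set by the fitting and measures no fold.

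Among rows named for genes of bone cells, Spp1 was called higher and Sost, Irx5 and Col3a1 lower in the sum. None of the 4 was called in a limb alone, and none lies opposite an annotated gene. Whether their reads came from the strand of the named gene was not tested, so the values below belong to the rows. The Spp1 row held 10 to 37 fragments per unit. Spp1 encodes osteopontin, an acidic phosphoprotein of bone matrix that macrophages also secrete (chr5:104435118-104441050 on GRCm38, plus strand). In TMM-scaled CPM, which divides a row's fragments by the effective size of its library, its summed level was 10.0, 6.81, 5.92 and 6.36 in Ctrl mice 1 to 4 and 20.1, 23.0, 24.0 and 19.5 in NT3 mice 1 to 4. Every NT3 mouse stood above the highest Ctrl mouse, which was Ctrl mouse 1. Spp1 was 2.96-fold higher in NT3 (7.28 ± 1.86 against 21.6 ± 2.21 CPM, mean ± SD, n = 4; log2 1.56, SE 0.29, edgeR adjusted p = 0.0018). Fitted alone, the non-loaded limb gave 1.47 with an adjusted p of 0.083 and the loaded limb 1.63 with an adjusted p of 0.060. Spp1 stayed called whichever mouse was left out, with adjusted p values from edgeR of 0.0015 to 0.012. The summed fragments of 19 macrophage and monocyte marker rows, not scaled for depth, were 880 to 949 in Ctrl units and 984 to 1112 in NT3 units. Cd163 (415 to 560 per unit) and Csf1r, opposite Hmgxb3 (238 to 293), held the most. Of the 19, 11 were at no more than 10 fragments in any unit and 0 at 0 throughout. Without Ms4a6c, which lies opposite BE692007, these unscaled sums overlapped (800 to 865 in Ctrl, 763 to 948 in NT3). Scaled sums without it were not computed. Unit totals were 1560739 to 1873068 fragments in NT3 against 1831333 to 1978154 in Ctrl. In TMM-scaled CPM the 7 tested rows of the list, Ms4a6c among them, held 444 to 546 in Ctrl and 575 to 644 in NT3. The unscaled sums of 21 neutrophil and granulocyte rows went the other way (947 to 1047 in Ctrl, 689 to 827 in NT3). Their 9 tested rows held 476 to 603 CPM in Ctrl and 384 to 460 CPM in NT3. The part of all these rows in the Spp1 result was not tested.

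The Sost row (chr11:101962458-101967015, minus strand) stood at 25.9, 37.2, 44.99 and 31.3 CPM in Ctrl mice 1 to 4 and at 13.0, 22.3, 20.1 and 13.6 CPM in NT3 mice 1 to 4. The lowest Ctrl mouse was above the highest NT3 mouse, although the groups overlapped in each limb taken alone. In the non-loaded limbs Ctrl mice held 28.1, 29.996, 50.01 and 46.8 CPM and NT3 mice 21.6, 30.2, 28.2 and 9.49 CPM. In the loaded limbs the values were 23.6, 44.1, 37.6 and 14.5 CPM in Ctrl and 4.25, 12.5, 11.8 and 19.1 CPM in NT3. NT3 mouse 4 was thus the lowest NT3 mouse in the non-loaded limb and the highest in the loaded limb, and the sum joined the 2 values. Sost was 2.03-fold lower in the sum (34.9 ± 8.18 against 17.3 ± 4.68 CPM, log2 -1.02, SE 0.24, edgeR adjusted p = 0.018), with -0.79 in the non-loaded limb and -1.36 in the loaded limb. The call was lost without Ctrl mouse 2 (adjusted p = 0.067), Ctrl mouse 3 (0.13), NT3 mouse 1 (0.080) or NT3 mouse 4 (0.080), and when the 16 libraries were fitted by limma-voom with mouse as a replicate block (log2 -1.09, adjusted p = 0.064). The summed fragments of 15 osteocyte marker rows, Sost and Irx5 among them and not scaled for depth, were 460 to 697 in Ctrl and 313 to 550 in NT3 units. Of the 15, 6 held at most 10 fragments in any unit.

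Irx5, a homeobox factor gene on the osteocyte list, stood at 14.7, 24.6, 32.0 and 25.4 CPM in Ctrl mice and at 9.22, 11.8, 13.0 and 14.2 CPM in NT3 mice 1 to 4. The groups did not overlap, but the lowest Ctrl mouse, at 14.7 CPM, was close above the highest NT3 mouse. The row was 2.01-fold lower in NT3 (log2 -1.01, SE 0.28, edgeR adjusted p = 0.048), just under the threshold, and only leaving out Ctrl mouse 1 kept it called. Without each of the other 7 mice its adjusted p from edgeR was 0.070 to 0.24, the DESeq2 Wald test gave 0.055 and the replicate block for mouse 0.089. Col3a1, which encodes the chain of collagen III, a fibrillar collagen of soft connective tissue, had 51.9, 58.2, 52.1 and 82.2 CPM in Ctrl mice and 48.8, 32.3, 29.9 and 36.6 CPM in NT3 mice 1 to 4. Its limbs differed in size: log2 -0.23 in the non-loaded limb and -0.96 in the loaded limb, with a limb difference of -0.74 (SE 0.43, unadjusted p = 0.096). In the sum it was 1.65-fold lower (log2 -0.72, SE 0.19, edgeR adjusted p = 0.042). That call was lost in 6 of 8 fits without 1 mouse, with adjusted p values up to 0.27 without Ctrl mouse 4. It held if Ctrl mouse 1 or NT3 mouse 1 was dropped, and the fit with mouse as a replicate block gave an adjusted p of 0.14.

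The remaining bone rows fixed for naming did not pass the test in the sum: Dmp1 (log2 -0.34, SE 0.19, adjusted p = 0.54), Col1a1 (-0.35, SE 0.25, 0.70), Ibsp (-0.33, SE 0.21, 0.63), Runx2, opposite Runx2os1 (0.23, SE 0.15, 0.63), Runx2os1 (-0.13, SE 0.13, 0.83) and Alpl (0.05, SE 0.42, 0.99). Ibsp had limbs of opposite sign, 0.29 in the non-loaded and -0.81 in the loaded limb, and its limb difference of -1.11 was called (adjusted p = 0.0099). By row name, the osteocyte list had 2 of 7 tested rows called lower, Sost and Irx5 (0.846% of all rows were called lower), and the median log2 change of the 7 was -0.34, against -0.01 over all rows tested. The osteoblast list had 1 of 15 called higher (1.14% of all rows were), Spp1, which is also known from cells outside the osteoblast line, and a median of -0.12. The collagen list had 2 of 22 called lower (0.846% of all rows were), Col3a1 and Col11a1 (log2 -1.02, also called in the loaded limb), and a median of -0.31. The limbs disagreed in sign for the medians of the collagen list (0.20 in the non-loaded, -0.47 in the loaded limb) and the osteoblast list (0.25 and -0.49). For the osteocyte list both limb medians were below 0 (-0.23 and -0.65). The only row opposite an osteoclast gene that was tested, Gm15200, opposite Ostm1, a subunit gene of the chloride-proton exchanger of the osteoclast, was 1.43-fold higher (log2 0.51, SE 0.13, adjusted p = 0.034). Its call was lost without each of 6 mice (adjusted p = 0.057 to 0.16) and held if Ctrl mouse 1 or NT3 mouse 4 was dropped. Not scaled for depth, the 17 osteoclast marker rows summed to 70 to 90 fragments in Ctrl and 98 to 132 in NT3 units. Of the 17, 11 held at most 10 fragments in any unit. Without Ctsk these sums overlapped, and their part in the Ostm1 row was not tested.

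**Figure D2:**
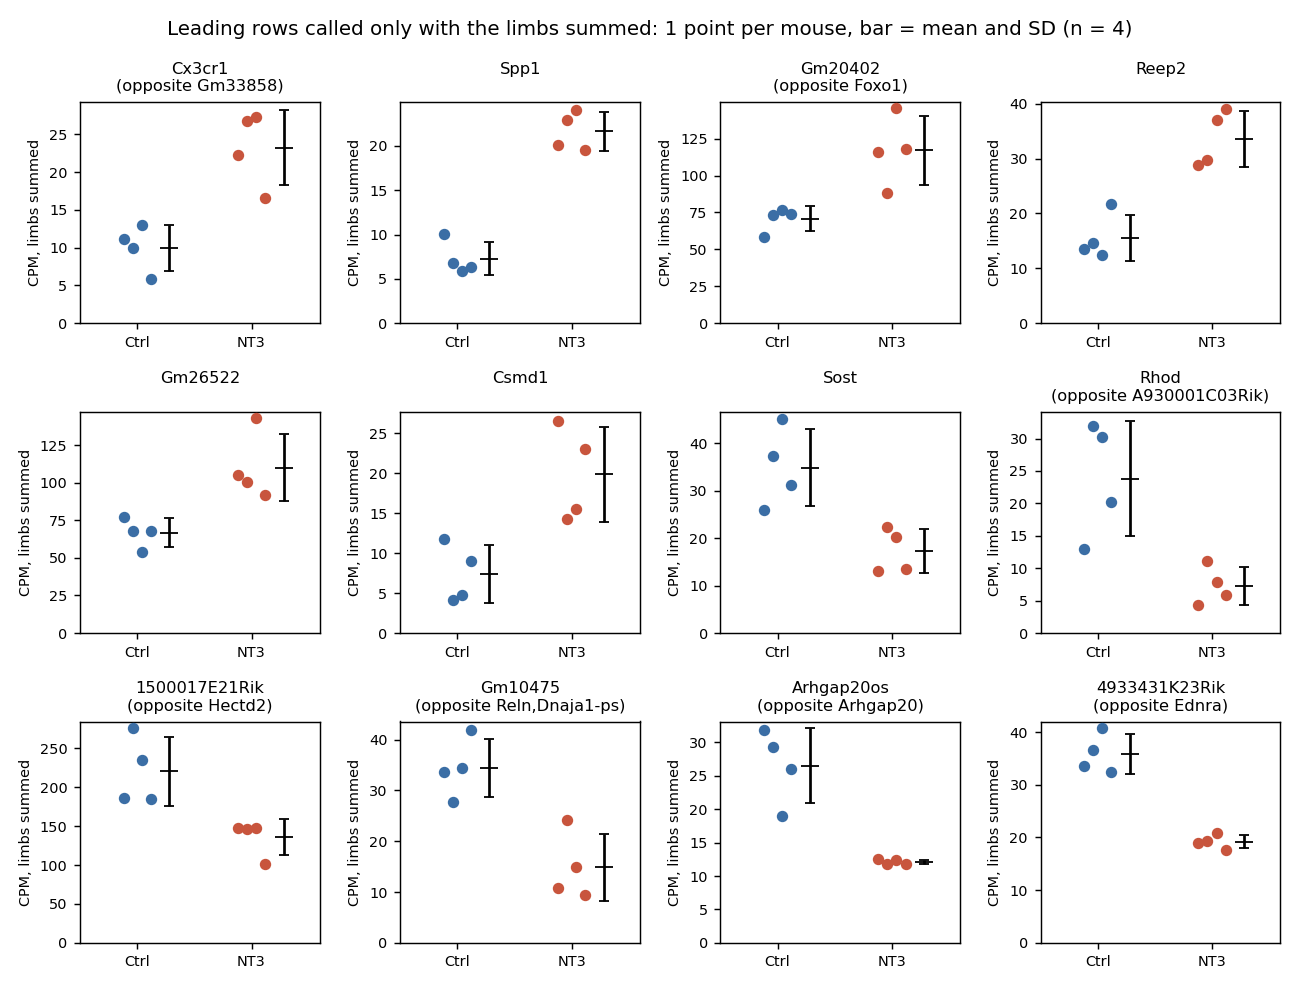
Each panel shows the TMM-scaled CPM of 1 row in the 8 summed units, 1 point per mouse, with the mean and SD of 4 mice beside them. The 12 rows were called only with the limbs summed, with rows that rose (Cx3cr1, Spp1, Gm20402, Reep2, Gm26522, Csmd1) and rows that fell (Sost, Rhod, 1500017E21Rik, Gm10475, Arhgap20os, 4933431K23Rik). They were picked from rows without overlap between the genotypes, so that the lack of overlap in the 12 panels was fixed by the choice.

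On the chemokine list 1 row was called only with the limbs summed, Cx3cr1, and among rows opposite interferon genes also 1, Gm17334. Cx3cr1, named for the fractalkine receptor of monocytes and macrophages and opposite Gm33858, stood at 11.2, 9.96, 13.0 and 5.83 CPM in Ctrl mice and at 22.2, 26.7, 27.3 and 16.5 CPM in NT3 mice 1 to 4. No Ctrl mouse reached the lowest NT3 mouse. The row was 2.32-fold higher (log2 1.21, SE 0.29, edgeR adjusted p = 0.018), with 1.39 in the non-loaded and 1.07 in the loaded limb. Its call was lost without Ctrl mouse 2 (adjusted p = 0.051), Ctrl mouse 4 (0.086) or NT3 mouse 3 (0.088). It was the only one of 7 chemokine and receptor rows called by name, beside 1.14% of all rows called higher. The macrophage and monocyte sums given for Spp1 stand beside this row too, and their part was not tested.

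Gm17334 lies opposite Irf1, the interferon-induced transcription factor gene, over 135 bases of its exons. It held 113, 71.3, 84.1 and 84.3 CPM in Ctrl mice and 118, 132, 159.8 and 121 CPM in NT3 mice 1 to 4. Ctrl mouse 1 was close below the lowest NT3 mouse, and the other Ctrl mice were further down. The row was 1.505-fold higher in NT3 (log2 0.59, SE 0.15, edgeR adjusted p = 0.028; 0.56 in the non-loaded and 0.62 in the loaded limb), and the call was lost without Ctrl mouse 2, 3 or 4 or NT3 mouse 3 (adjusted p = 0.092 to 0.19). It was also lost with animal number as a term (adjusted p = 0.15) and without robust dispersion (0.057), and with the marrow covariate described below its log2 change was 0.17 (0.94). It was 1 of 2 rows called higher among 5 that lay opposite genes of the interferon list, beside 1.14% of all rows called higher. The other was Art3, opposite the chemokine gene Cxcl10, which was also called in both limbs and is counted on the NF-kB and chemokine lists too.

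The next 5 rows belong to no list counted here and are given singly. Gm43474, opposite Slc15a4, a lysosomal transporter used by Toll-like receptor signalling, was 1.76-fold higher (log2 0.82, SE 0.19, adjusted p = 0.018). Gm11775, opposite Cd7, a T and NK cell surface protein, was 2.02-fold higher (log2 1.02, SE 0.25, adjusted p = 0.023). Calls of both were lost in some fits without 1 mouse: Gm43474 without Ctrl mouse 1, 2 or 4 or NT3 mouse 3 (adjusted p = 0.052 to 0.10), and Gm11775 without Ctrl mouse 2 or 4 or NT3 mouse 3 (0.086 to 0.16). Named after their values were seen, Cd38, the NAD-consuming ectoenzyme of leukocytes, rose by 1.04 on the log2 scale (adjusted p = 0.034), Aim2, the cytosolic DNA sensor, by 1.56 (adjusted p = 0.042) and Cbx7, opposite the deaminase gene Apobec3, by 0.63 (adjusted p = 0.032). The Cd38 groups did not overlap in the sum or in either limb (7.66 to 17.8 CPM in Ctrl, 19.0 to 35.4 CPM in NT3, summed). Without 1 mouse, Cd38 was lost in 5 of 8 fits, Aim2 in 6 and Cbx7 in 4, with adjusted p values up to 0.16, 0.20 and 0.14. The Apobec3 row itself, opposite Cbx7, was called in the sum and in the loaded limb (log2 0.56, adjusted p = 0.0096).

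B lymphoid genes, which mark B cells of the marrow, were examined by row name and by the gene opposite. Among 5 tested rows opposite them, 2 were called higher (1.14% of all rows were), Tesk1, opposite Cd72, and Gm29439, opposite Cd22, and both were called in the limbs too. The 5 rows together held 181 to 310.1 CPM in Ctrl and 446 to 706 CPM in NT3. By row name 5 of 26 B lymphoid genes were tested and 0 were called (median log2 0.11). The 5 rows tested by name together held 361.1 to 375.3 CPM in Ctrl and 386.8 to 458.7 CPM in NT3, without overlap. Of the 26, 19 held at most 10 fragments in any unit. The sums of the 26, not scaled for depth, ran from 638 to 765 fragments in Ctrl and 697 to 884 in NT3. No B lymphoid row was at 0 in all units, but Ms4a1 held at most 6 fragments. With the mean of 12 rows opposite marrow cell genes as a covariate, 8 rows were called in place of 171, and 1 only with the limbs summed. That mean was 7.25 to 7.71 log2 CPM in Ctrl and 7.82 to 7.94 in NT3, so that it separates the genotypes, and its part cannot be told apart from theirs. Under it all 171 rows kept their direction, but the median absolute log2 change of the 64 went from 1.07 to 0.89. Spp1 had 1.32 and Sost -0.89 there, while Gm11775 had 0.25, Gm15200 0.31 and Gm37844 0.18. The change shrank by over 1.5 times for 15 of the 36 named rows called only in the sum. Without the B lymphoid rows, a choice made after seeing the data, the mean of the 7 remaining rows overlapped between genotypes (9.01 to 9.44 and 9.11 to 9.34) and 173 rows were called, 75 only in the sum.

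Called rows opposite NF-kB genes were called in a limb already and so are not among the 64. Psd, opposite Nfkb2, had 184, 157, 170 and 188 fragments in Ctrl units 1 to 4 and 347, 301, 321 and 330 in NT3 units, and was 1.99-fold higher (log2 0.99, SE 0.13, adjusted p = 6.5e-06). The Nfkb2 row, which lies opposite Psd, did not pass (0.15, adjusted p = 0.93). Among 8 rows opposite NF-kB family and target genes 5 were called higher, beside 1.14% of all rows (Tbc1d17, Zmynd15, Art3, Oraov1 and Gm16175, opposite Il4i1, Cxcl16, Cxcl10, Ccnd1 and Bcl3) with a median of 0.85 over the 8, and 0 of the 5 were called only in the sum. Of 8 rows opposite antigen presentation genes 3 were called higher, beside the same 1.14% of all rows, with a median of 0.47, again with 0 only in the sum.

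The promoter letters of the genes tied to the 64 rows, by name or by the gene opposite, were searched for the 10-base NF-kB consensus on both strands. The windows ran from 250 bases before to 50 bases after a gene's RefSeq start on GRCm38.p6. A match was found for 7 of 62 genes with a window (11.3%), against 9.55% of all 27025 genes in the table and 8.46% of its 32851 windows. The share was 4 of 35 (11.4%) for rows that rose and 3 of 27 (11.1%) for rows that fell. A match is a description of letters and no evidence of binding. One gene opposite a row that rose and 1 each named by a row that rose and by a row that fell are shown, to let the matched letters be compared; capitals mark the match.
Irf1 promoter, chr11:53769764-53770063, plus strand of GRCm38.p6: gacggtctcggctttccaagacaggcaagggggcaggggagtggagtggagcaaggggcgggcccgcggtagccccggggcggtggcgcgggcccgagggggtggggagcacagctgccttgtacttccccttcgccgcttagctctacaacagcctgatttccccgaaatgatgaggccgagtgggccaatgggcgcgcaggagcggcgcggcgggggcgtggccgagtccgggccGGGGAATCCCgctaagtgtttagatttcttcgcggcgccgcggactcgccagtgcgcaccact
Tmcc2 promoter, chr1:132367899-132368198, minus strand of GRCm38.p6: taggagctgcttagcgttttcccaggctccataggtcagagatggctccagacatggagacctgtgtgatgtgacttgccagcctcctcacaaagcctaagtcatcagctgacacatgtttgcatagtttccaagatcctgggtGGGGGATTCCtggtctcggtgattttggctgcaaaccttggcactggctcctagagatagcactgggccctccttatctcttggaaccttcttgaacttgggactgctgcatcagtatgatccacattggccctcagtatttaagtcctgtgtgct
Cyp1b1 promoter, chr17:79715012-79715311, minus strand of GRCm38.p6: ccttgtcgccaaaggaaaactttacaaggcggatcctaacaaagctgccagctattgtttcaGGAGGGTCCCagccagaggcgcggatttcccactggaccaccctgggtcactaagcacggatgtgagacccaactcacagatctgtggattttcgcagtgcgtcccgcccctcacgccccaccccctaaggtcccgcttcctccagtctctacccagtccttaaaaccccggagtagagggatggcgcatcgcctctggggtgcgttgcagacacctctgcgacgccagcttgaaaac

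In the Irf1 window the match begins 13 bases before the start of that window's gene model, in the Tmcc2 window 106 bases and in the Cyp1b1 window 188 bases before it. Irf1 and Tmcc2 also have windows at other RefSeq starts, and those hold no match. Tmcc2, opposite Gm15849, a gene of a transmembrane coiled-coil protein, rose by 0.89 on the log2 scale (SE 0.24, adjusted p = 0.039), with 14.1, 13.6, 16.6 and 20.7 CPM in Ctrl mice and 26.05, 27.3, 29.9 and 37.8 CPM in NT3 mice 1 to 4. Cyp1b1, a cytochrome P450 gene, fell by 1.00 (SE 0.27, adjusted p = 0.047) and overlapped between the groups: Ctrl mouse 4 had 17.5 CPM and NT3 mouse 3 had 22.7 CPM. Both rows were named after their values were seen, and were lost in 5 and 6 of 8 fits without 1 mouse, with adjusted p values up to 0.16 and 0.22.

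The 16 rows that only the sum made testable had a median absolute log2 change of 1.86, against 0.85 for the 42 rows tested in both limbs, and few fragments. Summing brought 2105 rows over the filter on low counts that neither limb had passed, of which 16 (0.76%) were called, against 155 of 6521 rows (2.38%) that a limb had already tested. Has2os, an RNA opposite Has2, the gene of hyaluronan synthase, held 7, 7, 3 and 7 fragments in Ctrl units and 37, 14, 39 and 31 in NT3 units 1 to 4. Most of the difference was in the loaded limbs, where Ctrl held 5, 1, 2 and 2 fragments and NT3 27, 8, 26 and 25. In the non-loaded limbs the groups touched, at 2, 6, 1 and 5 against 10, 6, 13 and 6 fragments. Has2os was 5.33-fold higher in the sum (log2 2.41, SE 0.39, edgeR adjusted p = 3.0e-04), with a limb difference of 1.82 (SE 0.84, unadjusted p = 0.035, adjusted p = 0.78), and no single mouse removed the call (adjusted p = 2.7e-05 to 0.0041).

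Plet1os, named after its values were seen, lies opposite Plet1, the gene of a surface glycoprotein. It held 3, 5, 1 and 3 fragments in Ctrl units and 32, 12, 22 and 15 in NT3 units. All of the Ctrl fragments came from non-loaded limbs, while the loaded limbs held 0 in each of 4 Ctrl mice and 14, 3, 10 and 6 in NT3 mice. The summed log2 change was 2.80 (SE 0.48, adjusted p = 6.3e-04). Lpin3, a phosphatidate phosphatase gene also named after its values were seen, had the reverse balance. Its NT3 non-loaded limbs held 18, 16, 11 and 7 fragments against 3, 2, 0 and 3 in Ctrl, and its loaded limbs 7, 7, 11 and 12 against 2, 7, 7 and 6 (summed log2 1.66, SE 0.36, adjusted p = 0.0085). Both rows were called in every fit without 1 mouse, with adjusted p values up to 0.011 and 0.037.

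The 16 rows also held 8 that fell. Bcl2, the survival gene, had 31, 23, 18 and 27 fragments in Ctrl units and 4, 11, 2 and 8 in NT3 units (log2 -1.86, SE 0.41, adjusted p = 0.0096). The row opposite it, D630008O14Rik, had many more, and fell by 0.57 on the log2 scale in the sum and was called in the loaded limb too; the exons of the rows overlap by 558 bases. The Bcl2 call was lost without NT3 mouse 3 (adjusted p = 0.060). Mta1, a subunit gene of the NuRD chromatin complex named after its values were seen, held 14, 33, 14 and 16 fragments in Ctrl units and 4, 4, 0 and 4 in NT3 units (log2 -2.53, SE 0.52, adjusted p = 0.0052), a call lost without Ctrl mouse 2 (0.071). Rce1, the protease gene for CAAX proteins such as Ras (log2 -1.50, adjusted p = 0.025), Lrrc28 (-1.45, adjusted p = 0.032) and Whrn, whirlin (-1.25, adjusted p = 0.048), were lost in 4, 6 and 7 of 8 fits without 1 mouse, with adjusted p values up to 0.17, 0.23 and 0.20, and with the replicate block for mouse (0.058, 0.18 and 0.24). Fars2, the mitochondrial phenylalanine tRNA synthetase gene, opposite Nrn1 and Lyrm4, rose by 1.599 (adjusted p = 0.040) and was lost in 6 of 8 such fits, with adjusted p values up to 0.13, and with the replicate block (0.10). Its lowest NT3 unit held 10 fragments and its highest Ctrl unit 13, so the groups overlapped.

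**Figure D3:**
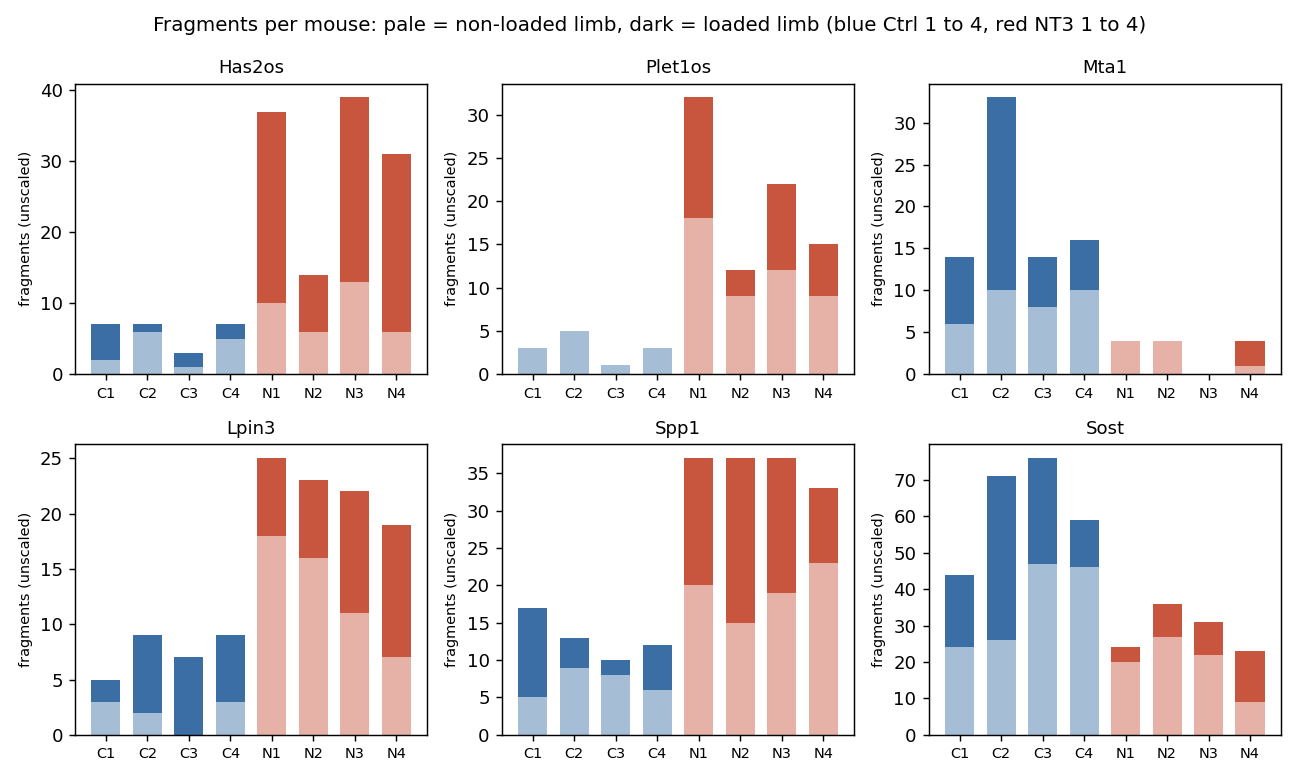
Stacked bars give the unscaled fragments of 6 rows in each mouse (C1 to C4 Ctrl, N1 to N4 NT3), with the non-loaded limb pale and the loaded limb dark. Has2os and Plet1os rest on few Ctrl fragments (at most 7 and 5 per unit), while every NT3 unit holds at least 14 and 12.

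Of the 29 rows that fell and were called only in the sum, Rhod had the smallest adjusted p. Named for a small GTPase and opposite the RNA A930001C03Rik (chr19:4425459-4439432, minus strand), it stood at 13.0, 32.0, 30.2 and 20.1 CPM in Ctrl mice and 4.34, 11.2, 7.80 and 5.91 CPM in NT3 mice 1 to 4. It was 3.28-fold lower (log2 -1.71, SE 0.33, edgeR adjusted p = 0.0028), with -1.65 in the non-loaded and -1.85 in the loaded limb. Rce1 lies 183159 bases away on the same chromosome and also fell. Gm10475, opposite Reln, the reelin gene, and Dnaja1-ps, had limbs of like size, -1.18 in the non-loaded and -1.25 in the loaded limb, without overlap in either. It stood at 33.6, 27.8, 34.3 and 41.9 CPM in Ctrl mice and at 10.9, 24.2, 14.9 and 9.45 CPM in NT3 mice (log2 -1.22, SE 0.26, edgeR adjusted p = 0.0072). Rhod and Gm10475 stayed called whichever mouse was left out, with adjusted p values up to 0.025 and 0.042.

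1500017E21Rik, opposite Hectd2, a ubiquitin ligase gene, was the best covered of these 29 rows, with 185.6, 276, 235 and 184 CPM in Ctrl mice and 148, 146.5, 147.5 and 102 CPM in NT3 mice 1 to 4. NT3 mice 1 to 3 lay close together and NT3 mouse 4 below them. The row was 1.62-fold lower (log2 -0.70, SE 0.14, edgeR adjusted p = 0.0059), with adjusted p values up to 0.045 when 1 mouse was left out and of 0.082 with animal number as a term. Arhgap20os, opposite Arhgap20, a GTPase activating protein gene, fell to 11.8 to 12.5 CPM in NT3 from 18.9 to 31.8 CPM in Ctrl (log2 -1.13, SE 0.25, adjusted p = 0.012), a call lost without Ctrl mouse 2 (adjusted p = 0.058). 4933431K23Rik, opposite Ednra, the endothelin receptor gene, fell to 17.7 to 20.8 CPM from 32.3 to 40.8 CPM (log2 -0.90, SE 0.21, adjusted p = 0.016) with no overlap in the sum or in either limb. Its call was lost without Ctrl mouse 2 or 3 or NT3 mouse 4 (adjusted p = 0.054 to 0.088).

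Other rows that fell were Gm26889, opposite the matrix adhesion gene Svep1 (log2 -0.61), Ermn, opposite the glycosyltransferase gene Galnt5 (-0.89), Cyp2d22, a cytochrome P450 (-0.80), Dnm3, a dynamin opposite Gm10176 and 2810442N19Rik (-0.67), Gm28402, opposite Mturn (-0.71), and the small nucleolar RNA row Gm22840 (-1.42). Their adjusted p values were 0.018 to 0.040, and each was lost in 4 to 7 of 8 fits without 1 mouse, with adjusted p values up to 0.24. With mouse as a replicate block 4 of these 6 were lost, Gm26889 (adjusted p = 0.053), Dnm3 (0.13), Gm28402 (0.066) and Gm22840 (0.16).

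Other rows that rose included Gm20402, opposite Foxo1, a transcription factor gene of insulin signalling. It stood at 58.3, 73.4, 77.0 and 74.2 CPM in Ctrl mice and at 116, 88.1, 145.6 and 118 CPM in NT3 mice 1 to 4. The lowest NT3 mouse was NT3 mouse 2, above every Ctrl mouse. The row was 1.65-fold higher (log2 0.72, SE 0.15, edgeR adjusted p = 0.0070), and was lost only without NT3 mouse 3 (adjusted p = 0.071). Reep2, which shapes the endoplasmic reticulum, stood at 13.6, 14.7, 12.4 and 21.7 CPM in Ctrl mice and 28.8, 29.8, 37.0 and 39.0 CPM in NT3 mice, 2.14-fold higher (log2 1.10, SE 0.24, edgeR adjusted p = 0.0079). Its adjusted p was at most 0.041 when 1 mouse was left out, and 0.0999 with animal number as a term (log2 0.89). Csmd1, named for a complement control protein, was 2.68-fold higher (log2 1.42, SE 0.34, adjusted p = 0.017), and the Gm37844 row, opposite Kbtbd11, 864115 bases away on chromosome 8, rose by 0.57 (SE 0.14, adjusted p = 0.026). Both were lost in 4 of 8 fits without 1 mouse, with adjusted p values up to 0.085 and 0.17, and Gm37844 also with the replicate block (0.11) and with animal number as a term (0.0999).

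Gm26522 (log2 0.72, adjusted p = 0.0085), A830073O21Rik, opposite Fam174b (1.21, adjusted p = 0.022), Rasgrf1, a Ras exchange factor (1.05, adjusted p = 0.023), and 2310001H17Rik, opposite Gm47861 (0.68, adjusted p = 0.027), completed the named rows that rose. They were lost in 1, 4, 3 and 3 of 8 fits without 1 mouse, Gm26522 only without NT3 mouse 3 (adjusted p = 0.091), and the others with adjusted p values up to 0.13, 0.090 and 0.12. With the replicate block 2310001H17Rik was lost (0.096).

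What set the 64 rows apart from the 107 called in a limb as well was their depth and precision more than the size of their effects, as a description of rows chosen by these values. Their median absolute log2 change was 1.07 in the sum, against 0.89 for the 107 rows and 0.19 over all rows tested. They averaged 10.0 to 312 fragments per unit with a median of 34.4, against a median of 134 for the 107 rows and 36.9 over all rows. The median SE of their log2 fold change was 0.27 in the sum, 0.35 in the non-loaded limb and 0.42 in the loaded limb. For the 107 rows it was 0.17, 0.23 and 0.21. When the summed counts were thinned at random to the depth of 1 limb, 45 of the 64 could be tested and 14 were called. In that thinned fit 108 rows were called in all, 19 of them only in the sum. Units did not overlap between genotypes for 57 of the 64 rows, beside 1.98% of rows called; over all 8626 rows they did not overlap for 555 (6.43%). Single limbs did not overlap for 34 of the 64 in the non-loaded and 22 in the loaded limb, against 335 (3.88%) and 586 (6.79%) of all rows. Of the 64, 37 (57.8%) lay opposite a gene, against 50.1% of all rows tested, and 37 (57.8%) carried names of protein-coding genes, against 63.8%.

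**Figure D4:**
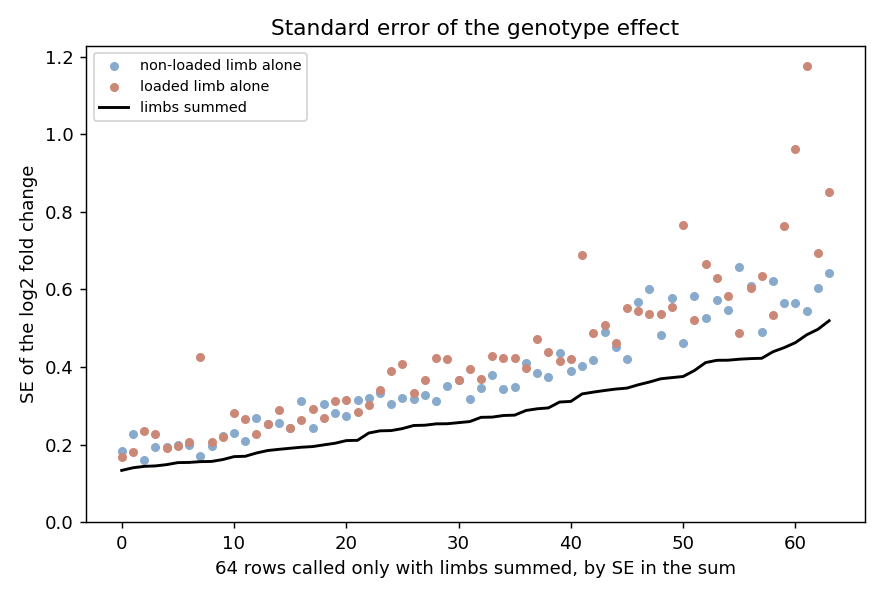
The y axis gives the SE of the NT3 against Ctrl log2 fold change for each of the 64 rows, ordered along the x axis by the SE in the sum (black line), with the non-loaded limb in blue and the loaded limb in red. The medians are 0.27 in the sum and 0.35 and 0.42 in the limbs, and all 64 rows have a larger SE in each limb than in the sum.

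Summing also removed calls. Of the 161 rows called in the loaded limb, 59 were not called in the sum, and their median absolute log2 change was 0.84 in the loaded and 0.26 in the non-loaded limb. The limbs had the same direction in 44 of the 59, and 3 were called in the test of the limb difference. Gm20444, opposite C1qtnf5 and Mfrp, had 0.67 in the non-loaded and -0.94 in the loaded limb, and -0.43 in the sum (adjusted p = 0.27). Gm38391, opposite the collagen lysyl hydroxylase gene Plod2, had -0.04 and -0.82, and -0.52 in the sum (adjusted p = 0.22). Sla differed from these: its limbs were alike, at -1.34 and -1.44, and its summed change of -1.37 had an SE of 0.36 and an adjusted p of 0.19, with 493 to 1141 CPM in Ctrl and 196 to 471 CPM in NT3. Gm29491, opposite Tgfb2 (sum -0.97, adjusted p = 0.27), and Gm13441, opposite Lamc3 (-0.90, adjusted p = 0.11), likewise had limbs of the same direction.

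All 4 rows called in the non-loaded limb and not in the sum were higher in NT3 there: Gm16000, opposite Pdgfc, 2700060E02Rik, opposite Nid2, 0610040F04Rik, opposite Bhlhe40, and Cd72, opposite Tesk1. Their changes were 0.97, 0.98, 0.87 and 0.64 in the non-loaded limb and -0.06, -0.11, 0.25 and -0.06 in the loaded limb. Among rows called in the sum, Nt5c3b, opposite the collagen chaperone gene Fkbp10, was the one with opposite limbs. It was -0.51 in the sum (adjusted p = 0.037) from 0.14 in the non-loaded and -0.80 in the loaded limb, and its limb difference of -0.93 was called (adjusted p = 0.0019).

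At the threshold, the rows just inside were Bcl7a, a chromatin remodelling subunit (log2 -0.91, adjusted p = 0.049), Fam189b (1.37, adjusted p = 0.049) and Ctgf, a growth factor-like matrix protein opposite Gm15270 (-0.70, adjusted p = 0.049). The rows just outside were BE692007, opposite Ms4a6c (0.50, adjusted p = 0.051), 4930551O13Rik, opposite Optn (-0.51, adjusted p = 0.051), and C030034L19Rik, opposite Zfp704 (-0.43, adjusted p = 0.053). Bcl7a and Fam189b belong to the 64 and were lost with the replicate block (0.13 each), and Ctgf was also called in the loaded limb.

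Left-out mice mattered more to the 64 rows than the choice of scaling. Of the 64, 9 stayed called in every fit without 1 mouse: Spp1, Has2os, Plet1os, Lpin3, Reep2, Gm25238, Rhod, Gm10475 and 1500017E21Rik. The other 55 lost the call in at least 1 such fit. The number of rows called only in the sum fell to 23 when NT3 mouse 3 was dropped, 27 for Ctrl mouse 2 and 37 for NT3 mouse 4, and was highest, 85, when Ctrl mouse 1 was dropped. Gm25238, a microRNA row opposite Cacul1 named after its values were seen, rose by 1.396 (SE 0.28, adjusted p = 0.0041), but NT3 mouse 2, at 16.8 CPM, lay below Ctrl mouse 3, at 19.5 CPM. With animal number as a term in 2 levels, with 1 Ctrl and 3 NT3 mice in the upper level, 86 rows were called and 27 only in the sum. Of the 36 named rows called only in the sum, 26 were lost with that term and 15 with mouse as a replicate block over the 16 libraries. The block fit used limma-voom in place of edgeR. In limma-voom on the summed units without a block, added after seeing the data, 16 of the 36 were lost. Losses from the block and from the change of test were not told apart. Across every alternative in which they were tested, the 171 rows kept their direction.

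**Figure D5:**
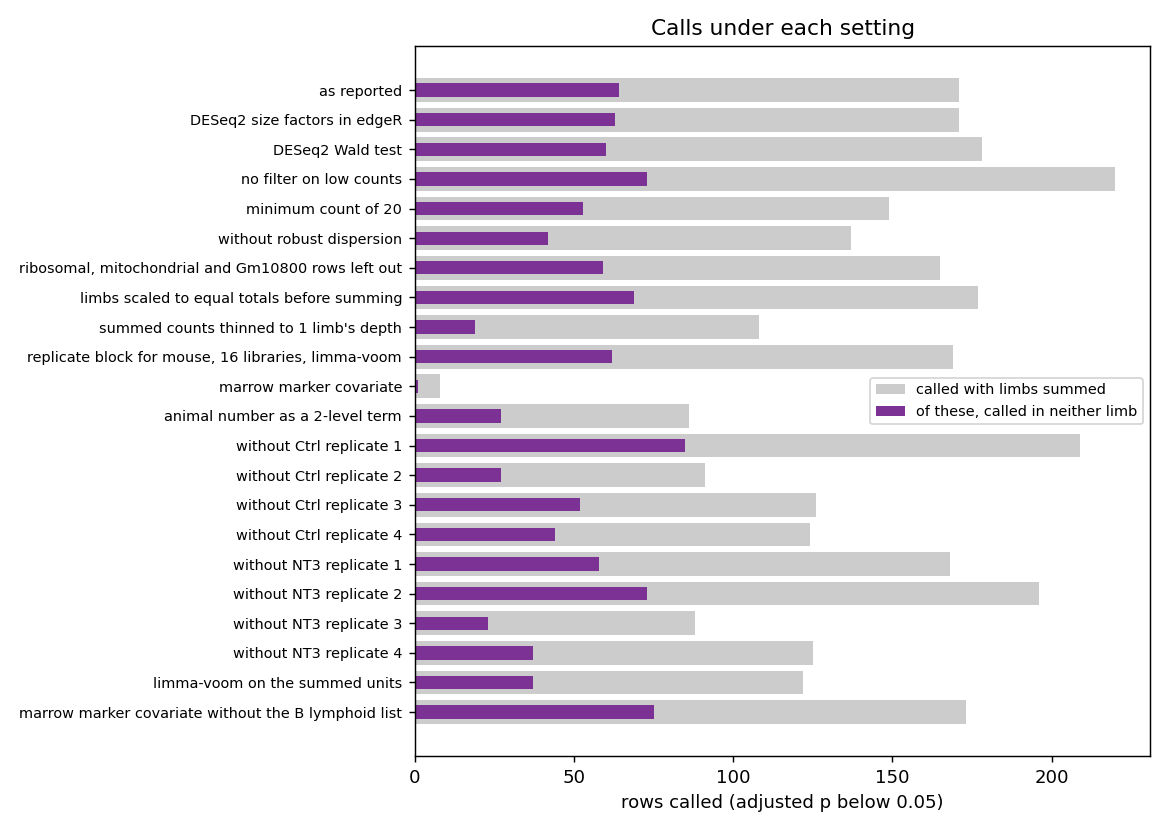
Grey bars give the rows called with the limbs summed and purple bars those among them called in neither limb, for the fit as reported (171 and 64) and each alternative. The shortest pair, 8 and 1, has the marrow marker covariate, which separates the genotypes, and the pair without the B lymphoid list is 173 and 75.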

How the data were processed

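RNA was sequenced from both tibiae of 8 mice (75-base single-end reads of ribosomal RNA-depleted total RNA, mean RIN 5.4, per the labels). The authors deposited raw fragment counts per gene, aligned with STAR 2.4.2a to mm10 and counted with featureCounts 1.4.6, per the submitters' processing notes; the annotation release and strand setting are not given in the sources used here. No value was normalized before deposit. Of 47517 rows, 45250 matched GENCODE M21 by symbol and 619 by an older symbol. An opposite gene shares at least 20 exon bases.

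Left and right counts were summed per mouse, which gave 1560739 to 1978154 fragments. Low rows were removed by filterByExpr (minimum count 10), libraries were scaled by TMM, and rows were tested with edgeR 4.0.16 (robust quasi-likelihood, R 4.3.3), with Benjamini-Hochberg adjustment and a threshold of 0.05. Each limb was fitted alone in the same way. Limb effects printed beside a sum come from the rows tested in the sum, and limb p-values from each limb's own filter. The difference between limbs was fitted in edgeR with mouse as a block; both limbs of a number come from the same animal. Deviations from the group means correlated between the limbs of a mouse by 0.0297 to 0.121. The non-loaded limb of each mouse was also compared with the loaded limbs of the other mice of its genotype only. In 7 of 8 mice none of these correlated more than its own loaded limb. In Ctrl mouse 4 the own limb had 0.0297, against 0.107 with another Ctrl mouse. Replicate numbers do not pair mice across genotypes. Alternatives used limma 3.58.1, statmod 1.5.0 and DESeq2 1.42.0. The code was tested on simulated counts.

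The named rows were those called only in the sum, with the 12 smallest adjusted p values per direction at a mean of at least 20 fragments and no overlap; the 5 smallest per direction called in a limb too; up to 4 called members of each of 33 gene lists; up to 5 rows filtered out in both limbs; up to 5 rows per limb called there and not in the sum; 3 rows on each side of the threshold; fixed bone and NF-kB genes; and rows that differed between limbs. Not all are printed. The members, lists and rule were chosen with earlier results of these data known.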

Additional observations from a re-analysis of the deposited data

Results flagged for a closer look

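Within groups of 4 mice, 11 of 170 groups had 1 mouse apart from the other 3 by Dixon's criterion for 4 samples, where chance gives about 5%. Among rows called only in the sum these were Gm15200 in Ctrl mouse 1 (139.6 CPM against 99.7 to 101.7), Gm43474 in Ctrl mouse 3 (73.4 CPM), 1500017E21Rik in NT3 mouse 4 (101.6 CPM), Bcl7a in Ctrl mouse 2 (58.7 CPM) and Gm28402 in Ctrl mouse 4 (43.5 CPM) and NT3 mouse 2 (38.5 CPM). The Bcl7a mouse is the one that raised its Ctrl mean: without it the adjusted p from edgeR was 0.42. Among other rows they were Ctgf (59.6 CPM), Nr1d1 (69.5 CPM) and Col1a1 (245.8 CPM) in NT3 mouse 2, Gm29491 in Ctrl mouse 3 (195.9 CPM) and Ibsp in NT3 mouse 4 (90.3 CPM).

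The genotype effect differed between limbs, in edgeR's test with mouse as a block, for 4 rows called in a limb or in the sum. The loaded effect minus the non-loaded effect was -1.62 on the log2 scale for Gm20444, -1.06 for Abi3, -0.93 for Nt5c3b and -1.64 for Gm26840. Abi3 lies opposite Zfp652, Phospho1 and Gngt2. Of the 4 rows Nt5c3b alone was called in the sum.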

How the results depend on the processing

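In place of 171 rows called in the sum and 64 only there, counts thinned to 1 limb's depth gave 108 and 19, the marrow covariate 8 and 1, and animal number as a term 86 and 27. Without robust dispersion 42 rows were called only in the sum, and in limma-voom on the summed units, added after seeing the data, 37. Leaving out 1 mouse gave 88 to 209 rows in the sum, 23 to 85 only there, and 12 to 77 in the non-loaded limb. In limma-voom with mouse as a replicate block over 16 libraries (consensus correlation 0.0837), 169 rows were called and 62 only in the sum, 37 of them among the 64. The limb difference had 10 called rows under its own filter and 0 in edgeR with no replicate block, where 335 had an unadjusted p below 0.05.

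Alpl, not called, was 0.05 on the log2 scale and turned to -0.0327 with limbs scaled to equal totals, -0.26 with the replicate block, -0.73 with the marrow covariate and -0.0829 in limma-voom on summed units, and ran from -0.36 to 0.31 without 1 mouse. Nfkb2 turned to -0.0335 with animal number as a term and Runx2 to -0.0085 with the marrow covariate. Of 1768 values of 85 named rows under alternatives, 1352 kept direction and side of the threshold, 364 lost a call, 42 gained one and 10 reversed. The causes were not tested. Few fragments per row limit the precision.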
